A study of Homo sapiens with 12 samples.

Results

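The genes described here are the subunits, assembly chaperones, activators and inhibitor of the proteasome, taken as every row of the count table whose symbol is PSM, a letter from A to G and a number. They were 48 of 25369 genes. By their known roles, 16 encode alpha or beta subunits of the 20S core particle, 3 the inducible catalytic subunits of the immunoproteasome, 17 subunits of the 19S regulatory particle, 7 assembly chaperones, 4 activators and 1 an inhibitor. The counts came from poly(A)+ RNA-seq of 3 established human cancer lines, RKO (colon carcinoma), A549 (lung adenocarcinoma) and H460 (lung large cell carcinoma), kept in normoxia or placed in 1% O2 for 24 h. There were 6 groups of 2 libraries, which the study describes as independent biological duplicates. RKO and A549 grew in DMEM and H460 in RPMI, so line and medium cannot be told apart in any comparison between H460 and the others.

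The proteasome degrades proteins that carry ubiquitin chains. The 20S core is a barrel of stacked rings, the outer ones of alpha and the inner ones of beta subunits. PSMB6, PSMB7 and PSMB5 carry its caspase-like, trypsin-like and chymotrypsin-like sites. The 19S regulatory particle binds the ubiquitin chain, unfolds the substrate with a ring of ATPases and removes the ubiquitin in its lid. Interferon-gamma induces PSMB9, PSMB10 and PSMB8, which replace PSMB6, PSMB7 and PSMB5 in the immunoproteasome and favour peptides for antigen presentation. Genes for the constitutive subunits are known to be transcribed together, in part under NFE2L1, a membrane-bound factor that is released and activated when proteasome activity is low and that binds antioxidant response elements.

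Counted reads per library ranged from 27350424 to 41757584, and PSMB9, the member with the lowest tested counts, still had at least 226 reads per library. The annotation lists 44 pseudogenes for 17 of the 48 genes, 13 of them for PSMC1, 6 for PSME2 and 4 for PSMA6, so their counts are less certain. CA9, a hypoxia target, rose in each line, from 1.055 to 5.74 CPM in the normoxia libraries to 54.0 to 259.5 CPM in the hypoxia libraries. Here and below, CPM is the read count relative to library size (counts per 1e+06 reads) after TMM scaling over the 12 libraries. Of the colon markers, CDX2 was at 9.29 to 15.5 CPM in RKO, while VIL1 had 0 reads and KRT20 0 to 2. Of the lung markers, NAPSA was at 3.26 to 4.89 CPM in A549 and at most 0.73 in the other lines, while SFTPB had at most 4 reads in any library and NKX2-1 at most 8 in A549. In H460, NKX2-1 had 2 and 0 reads in normoxia and 87 and 98 in hypoxia. The leukocyte markers PTPRC, CD3E and LYZ had at most 14 reads in any library. The spread between replicates differed by line, with a biological coefficient of variation of 15.0% in RKO, 18.9% in A549 and 7.91% in H460.

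Promoter sequences of these genes were read for short motifs, and no test was run on the shares that follow. RefSeq (GRCh38.p14) gave windows of 250 bases before and 50 bases from the transcript start for 42 of the 48 genes, with none matched for PSMA7, PSMB1, PSMB6, PSMB7, PSMD4 and PSMG3. Both strands were searched for 5 motifs, whose matches may overlap. The antioxidant response element core TGACNNNGC was in the promoters of 15 of the 42 (35.7%), against 16.1% of all 27305 genes of the RefSeq table. The interferon-stimulated response element core GAAANNGAA was in 8 (19%, all genes 9.9%) and the gamma-activated site TTCNNNGAA in 8 (19%, all genes 9.4%). CCAAT was in 20 (47.6%, all genes 39.7%) and ACGTG, the core of the hypoxia response element, in 9 (21.4%, all genes 24.9%). A match describes letters in the window and is not evidence of binding.

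The promoters of 2 immunoproteasome subunits and of 2 constitutive genes that fell in RKO are printed below, 5′ to 3′ on the gene's strand, with each match of the 5 motifs in capitals. PSMB9, the remaining immunoproteasome subunit, is not printed. It had the antioxidant response element core, CCAAT and ACGTG. Neither the gamma-activated site nor the interferon-stimulated response element core was found for it. Positions count from 0 at the first transcribed base. In PSMB8 (chr6:32843998-32844297, minus strand) the capitals mark a gamma-activated site from -65 to -57 and, on the opposite strand, an interferon-stimulated response element core from -3 to 5. In PSMB10 (chr16:67936801-67937100, minus strand) they mark an interferon-stimulated response element core from -21 to -13 and the hypoxia response element core ACGTG from 2 to 6. In PSMG1 (chr21:39183402-39183701, minus strand) and PSMD12 (chr17:67366528-67366827, minus strand) they mark an antioxidant response element core, from -183 to -175 and from -165 to -157, and in PSMG1 also CCAAT from -235 to -231.
PSMB8: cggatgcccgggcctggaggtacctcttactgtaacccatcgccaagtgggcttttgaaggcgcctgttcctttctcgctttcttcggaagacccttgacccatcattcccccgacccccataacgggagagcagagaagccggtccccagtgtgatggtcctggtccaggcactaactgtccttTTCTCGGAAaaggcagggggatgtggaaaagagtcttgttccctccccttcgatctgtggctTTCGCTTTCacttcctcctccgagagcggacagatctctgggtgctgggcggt
PSMB10: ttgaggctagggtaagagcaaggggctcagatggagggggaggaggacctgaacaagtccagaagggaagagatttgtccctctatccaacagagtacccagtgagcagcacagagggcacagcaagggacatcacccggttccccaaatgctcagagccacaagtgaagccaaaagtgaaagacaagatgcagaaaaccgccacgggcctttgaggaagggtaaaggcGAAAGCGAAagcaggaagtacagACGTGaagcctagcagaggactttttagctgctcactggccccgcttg
PSMG1: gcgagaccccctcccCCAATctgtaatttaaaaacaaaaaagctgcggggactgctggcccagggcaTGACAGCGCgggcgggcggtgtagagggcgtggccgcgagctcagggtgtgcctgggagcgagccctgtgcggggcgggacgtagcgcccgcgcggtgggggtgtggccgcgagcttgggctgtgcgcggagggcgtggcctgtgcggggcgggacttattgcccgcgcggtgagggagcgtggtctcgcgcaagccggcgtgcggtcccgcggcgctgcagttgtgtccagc
PSMD12: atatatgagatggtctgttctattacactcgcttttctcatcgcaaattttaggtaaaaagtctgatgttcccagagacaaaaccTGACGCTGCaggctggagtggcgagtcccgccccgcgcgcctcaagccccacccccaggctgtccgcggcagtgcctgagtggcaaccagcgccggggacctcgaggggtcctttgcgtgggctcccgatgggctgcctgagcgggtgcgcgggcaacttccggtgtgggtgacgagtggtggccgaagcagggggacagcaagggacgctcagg

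To ask whether proteasome mRNAs changed with oxygen, edgeR was run separately on the 4 libraries of every line, and a gene was called at a Benjamini-Hochberg adjusted p (over all genes tested) under 0.1 and a fold change over 1.5. In RKO 30 of the 46 tested genes fell (65.2%, against 15.1% of all genes) and 0 rose (all genes 18.8%). In H460 22 of 46 fell (47.8%, all genes 27.3%) and 0 rose (all genes 24.6%). In A549 0 fell (all genes 0.456%) and 0 rose (all genes 2.22%), with 3 of 46 at an unadjusted p under 0.05 by edgeR and 3 by DESeq2. PSMA8, a testis-enriched alpha subunit, had 0 reads in all 12 libraries and PSMB11, the thymus subunit, 0 or 1, so neither was tested. In bulk RNA a lower level can come from fewer expressing cells or less RNA per cell, and these cannot be told apart.

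The median log2 fold change of the 46 genes was -0.68 in RKO, where that of all genes tested was 0.01. It was -0.23 in A549 (all genes -0.01) and -0.48 in H460 (all genes -0.04). The fold change was below 0 for 45 of the 46 genes in RKO, 41 in A549 and 39 in H460. Both hypoxia libraries lay below both normoxia libraries for 43 genes in RKO (31.6% of all genes), 16 in A549 (23.9%) and 34 in H460 (43.9%). The A549 estimates had a median SE of 0.19 on the log2 scale, against 0.15 in RKO. Simulated log2 changes of 0.75 were recovered for 22% of changed genes in A549, 66% in RKO and 91% in H460. The simulation changed only 100 genes at each size, far fewer than were called in RKO and H460. Its adjusted p cutoff can thus be stricter, and these shares do not give the power of the real fits in those 2 lines. In all, 18 genes fell in both RKO and H460, 12 fell in RKO without a call in H460, 4 fell in H460 without a call in RKO, and 12 tested genes had no call in any line. How many of all genes show each of these patterns was not counted, so the overlap cannot be judged against them. No member was called in opposite directions in any 2 lines, which follows from the lack of any member called higher. Without replicate 1 of the A549 hypoxia group, 5 genes passed in A549 as lower, namely PSMC4, PSMD1, PSMD11, PSMD12 and PSME3 (10.9%, all genes 5.34% in that setting), and leaving out any other A549 library gave 0.

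**Figure D1:**
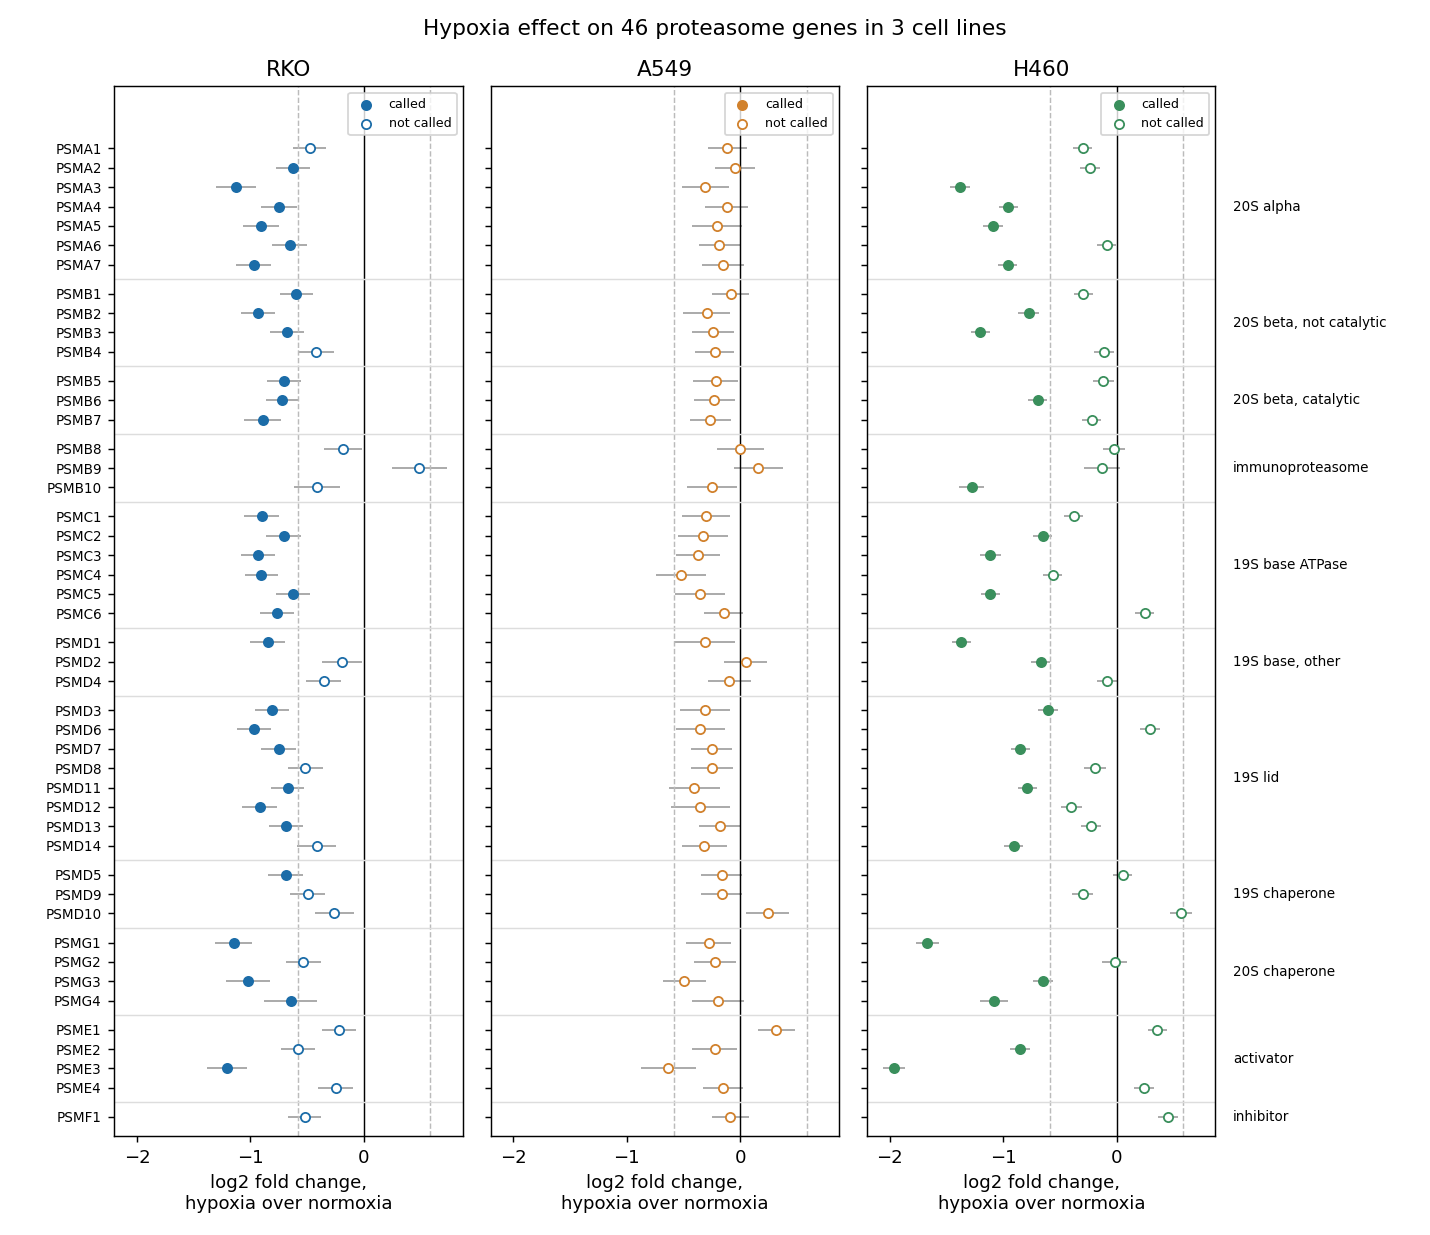
Log2 fold change of hypoxia over normoxia (x axis) for the 46 tested proteasome genes (rows, grouped by role) in RKO, A549 and H460; points are edgeR estimates, bars 1 standard error, filled points called genes, and dashed lines a 1.5-fold change. In RKO 30 points are filled, all left of 0, in A549 0, and in H460 22, all left of 0; under other scalings 2 A549 and 6 H460 points, which are not filled, change side of 0.

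The summed reads of the 48 genes made up 0.915% and 0.858% of all counted reads in the RKO normoxia libraries and 0.607% and 0.629% in hypoxia. In A549 they made up 0.714% and 0.612% in normoxia and 0.603% and 0.470% in hypoxia. The H460 shares were 0.568% and 0.563% in normoxia and 0.319% and 0.325% in hypoxia. The 2 hypoxia libraries lay below the 2 normoxia libraries in each line. In H460 the share also moves with the library composition, since scaling by library size alone shifted the median of all genes by -0.35 on the log2 scale relative to TMM. Relative to the median of all genes, the H460 members stood at -0.44 with TMM and -0.45 with library size. With library size alone 29 members fell in H460, beside 40.9% of all genes that fell and 14.7% that rose.

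**Figure D2:**
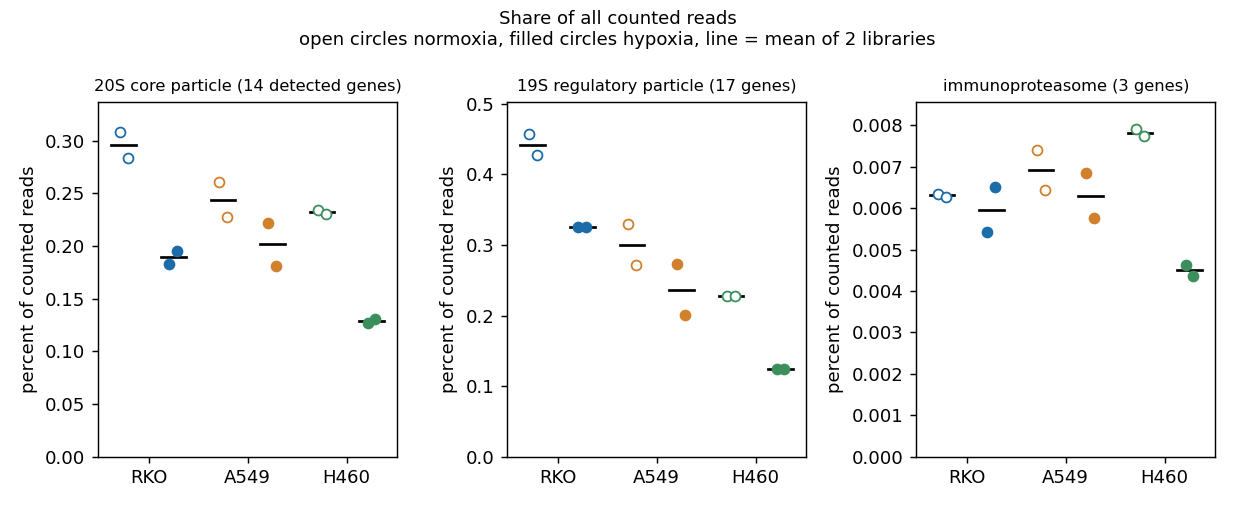
Percent of all counted reads (y axes from 0) taken by core particle, regulatory particle and immunoproteasome genes in each of the 12 libraries, unscaled by TMM; open circles are normoxia, filled circles hypoxia and lines the mean of 2 libraries. Core genes took 0.309% and 0.284% of RKO normoxia reads and 0.183% and 0.195% in hypoxia, and the immunoproteasome genes overlapped between conditions in RKO and A549.

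Of the 14 tested subunits of the core particle 12 fell in RKO (all genes 15.1%), 0 in A549 (all genes 0.456%) and 7 in H460 (all genes 27.3%). Their medians were -0.71, -0.21 and -0.50 on the log2 scale. Among the 7 alpha subunits, which form the gate of the barrel, 6 fell in RKO and 4 in H460. PSMA3 had 110 and 98.7 CPM in RKO normoxia and 42.3 and 57.1 in hypoxia, a log2 fold change of -1.13 ± 0.18 (SE) (adjusted p = 0.000999). In H460 it fell by 1.38 ± 0.09 (adjusted p = 7.27e-08). PSMA7 had 264 and 244 CPM in RKO normoxia and 131 and 139 in hypoxia. It had 271 and 242 CPM in A549 normoxia and 255 and 210 in hypoxia, and 263 and 261 CPM in H460 normoxia and 135 and 137 in hypoxia. The groups of PSMA7 overlapped in A549 and not in RKO or H460. PSMA1 and PSMA6 were at -0.30 and -0.09 in H460 and were not called there.

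Of the 4 beta subunits without a catalytic site, 3 fell in RKO (all genes 15.1%) and 2 in H460 (all genes 27.3%). PSMB3 fell by 0.67 ± 0.15 (adjusted p = 0.00534) in RKO and by 1.20 ± 0.08 (adjusted p = 1.69e-07) in H460, where it went from 138 and 134.5 CPM to 58.95 and 60.8. In RKO it had 160.0 and 145.5 CPM in normoxia and 104 and 95.7 in hypoxia, and in A549 182 and 154 against 156.5 and 131. PSMB2 fell by 0.93 ± 0.15 in RKO and by 0.78 ± 0.09 in H460. PSMB4 was not called in any line, with log2 fold changes of -0.42, -0.23 and -0.11 in RKO, A549 and H460.

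The 3 constitutive catalytic subunits fell in RKO (all genes 15.1%). PSMB5, the chymotrypsin-like subunit, had 242 and 217 CPM in RKO normoxia and 151 and 144 in hypoxia, 182 and 138 against 150 and 128 in A549, and 181 and 161 against 166 and 152.5 in H460. PSMB6, the caspase-like subunit, had 161 and 149 CPM against 99.7 and 96.4 in RKO, 209 and 181 against 178 and 158 in A549, and 149 and 146 against 92.0 and 91.9 in H460. PSMB7, the trypsin-like subunit, had 383 and 316 CPM against 208 and 186 in RKO, 178 and 148 against 146 and 128.5 in A549, and 142 and 143 against 131 and 117 in H460. Both hypoxia libraries lay below both normoxia libraries for PSMB6 and PSMB7 in each line, and for PSMB5 in RKO, while PSMB5 overlapped in A549 and H460. PSMB5, PSMB6 and PSMB7 fell by 0.70 ± 0.15 (adjusted p = 0.00464), 0.72 ± 0.15 (adjusted p = 0.00358) and 0.89 ± 0.16 (adjusted p = 0.00204) in RKO. In H460 PSMB6 fell by 0.70 ± 0.08 (adjusted p = 1.22e-05), while PSMB5 and PSMB7 were at -0.12 ± 0.09 and -0.22 ± 0.09. In A549 the 3 genes were between -0.22 and -0.26 with adjusted p values from 0.509 to 0.625.

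Of the 3 immunoproteasome subunits 1, PSMB10, was called, as lower in H460 (all genes 27.3%). Without replicate 2 of RKO hypoxia PSMB10 also passed as lower in RKO, at -0.63 (adjusted p = 0.0195 by edgeR). PSMB8 (chymotrypsin-like; GRCh37 chr6:32808494-32812456, minus strand) had 31.0 and 30.04 CPM in RKO normoxia and 27.3 and 28.8 in hypoxia, 27.3 and 23.8 against 27.9 and 23.9 in A549, and 32.6 and 31.2 against 33.0 and 30.7 in H460. PSMB9 (the counterpart of PSMB6, chr6:32811913-32827628, plus strand) had 7.55 and 5.67 CPM against 10.2 and 9.17 in RKO, 15.9 and 14.8 against 18.2 and 16.5 in A549, and 12.5 and 10.6 against 12.03 and 9.32 in H460. PSMB10 (trypsin-like; chr16:67968409-67970767, minus strand) had 22.1 and 22.3 CPM against 14.8 and 19.9 in RKO, 27.5 and 21.8 against 22.5 and 19.5 in A549, and 31.6 and 31.9 against 13.9 and 12.6 in H460. PSMB8 overlapped between conditions in A549 and H460 and lay lower in hypoxia in RKO. PSMB9 lay higher in both hypoxia libraries of RKO and of A549 and overlapped in H460. PSMB10 lay lower in hypoxia in RKO and H460 and overlapped in A549. PSMB10 fell in H460 by 1.28 ± 0.11 (adjusted p = 8.59e-07). In RKO, PSMB8, PSMB9 and PSMB10 were at -0.18 ± 0.17 (adjusted p = 0.413), 0.49 ± 0.24 (adjusted p = 0.138) and -0.41 ± 0.20 (adjusted p = 0.130). The PSMB8 and PSMB9 genes overlap on opposite strands in GENCODE, and the counting used the strand.

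**Figure D3:**
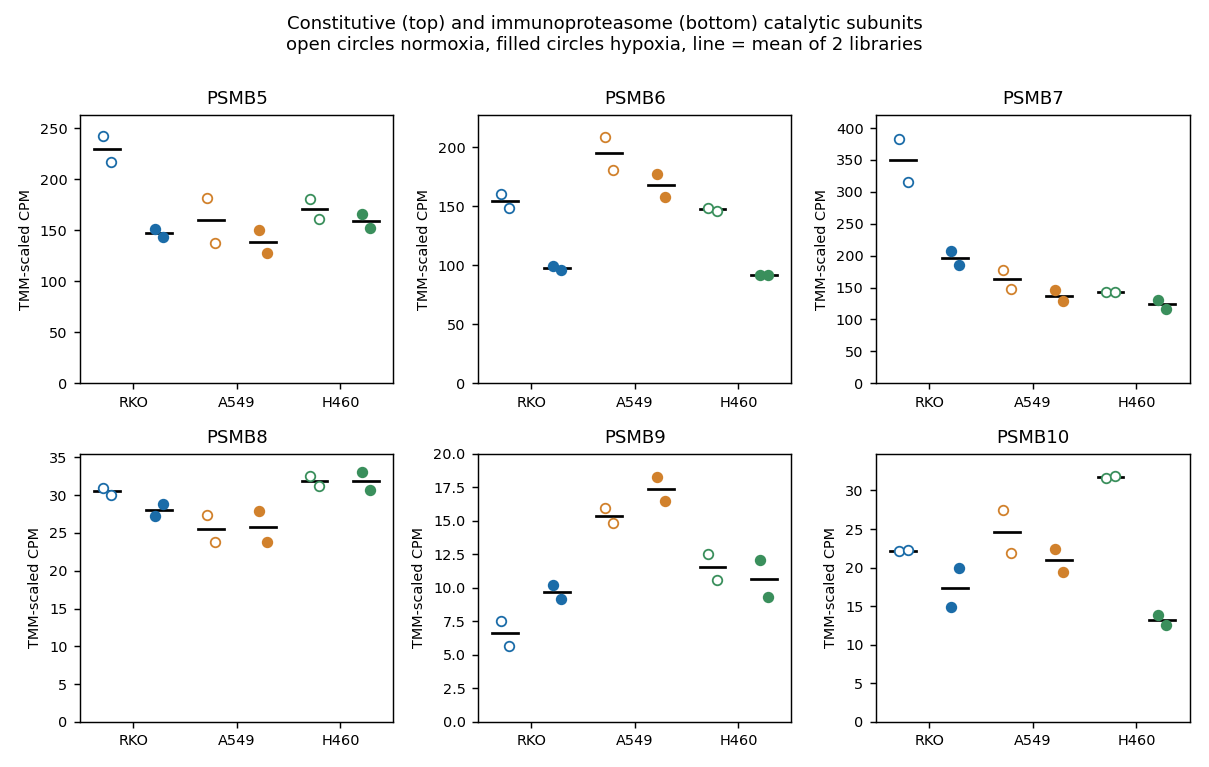
TMM-scaled CPM (y axes from 0) of the constitutive catalytic subunits PSMB5, PSMB6 and PSMB7 (top) and their immunoproteasome counterparts PSMB8, PSMB9 and PSMB10 (bottom) in each library; open circles are normoxia, filled circles hypoxia and lines the mean of 2 libraries. In RKO PSMB7 goes from 383 and 316 to 208 and 186 CPM while PSMB9 goes from 7.55 and 5.67 to 10.2 and 9.17, and in H460 PSMB10 goes from 31.6 and 31.9 to 13.9 and 12.6.

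The balance between inducible and constitutive subunits was read as a ratio of reads per kilobase within each library, which needs no scaling between libraries. PSMB8 over PSMB5 was 0.165 and 0.179 in RKO normoxia and 0.234 and 0.259 in hypoxia, 0.195 and 0.224 against 0.24 and 0.242 in A549, and 0.233 and 0.25 against 0.257 and 0.26 in H460. PSMB9 over PSMB6 was 0.0403 and 0.0327 against 0.0875 and 0.0815 in RKO, 0.0654 and 0.0702 against 0.0880 and 0.0893 in A549, and 0.0718 and 0.0623 against 0.112 and 0.0869 in H460. Both ratios were higher in hypoxia than in normoxia in each line, with no overlap. The log2 ratio rose by a mean over lines of 0.27 for PSMB8 over PSMB5 (1.21-fold) and 0.72 for PSMB9 over PSMB6 (1.65-fold). A two-sided exact permutation test within lines gave p = 0.00926 for each, the smallest the 216 arrangements allow. Benjamini-Hochberg adjustment of this test over the 3 ratios gave 0.0139. The test was chosen after the separation of the ratios had been seen, so its p-values give that separation no support. PSMB8 itself lay lower in hypoxia in RKO and overlapped between conditions in A549 and H460. By line (RKO, A549, H460), the difference came to 0.52, 0.21 and 0.10 for PSMB8 over PSMB5 and to 1.22, 0.39 and 0.56 for PSMB9 over PSMB6.

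PSMB10 over PSMB7 did not share this direction across lines. It was 0.0582 and 0.0711 in RKO normoxia and 0.0721 and 0.108 in hypoxia, 0.156 and 0.149 against 0.155 and 0.153 in A549, and 0.224 and 0.226 against 0.107 and 0.109 in H460. The log2 difference stood at 0.46 for RKO, at 0.015 for A549 and at -1.055 for H460, with a mean of -0.19 (exact permutation p = 0.306, adjusted 0.306). The lengths of PSMB8 and PSMB9 were taken from the GENCODE transcript, because the deposited lengths are 12.6 and 8.24 times as long. Reads of PSMB8 and PSMB9 shared with alternate copies of their region in the reference may have been filtered out, which would lower their ratios. This was not tested. These ratios and their test were chosen after the values had been seen.

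**Figure D4:**
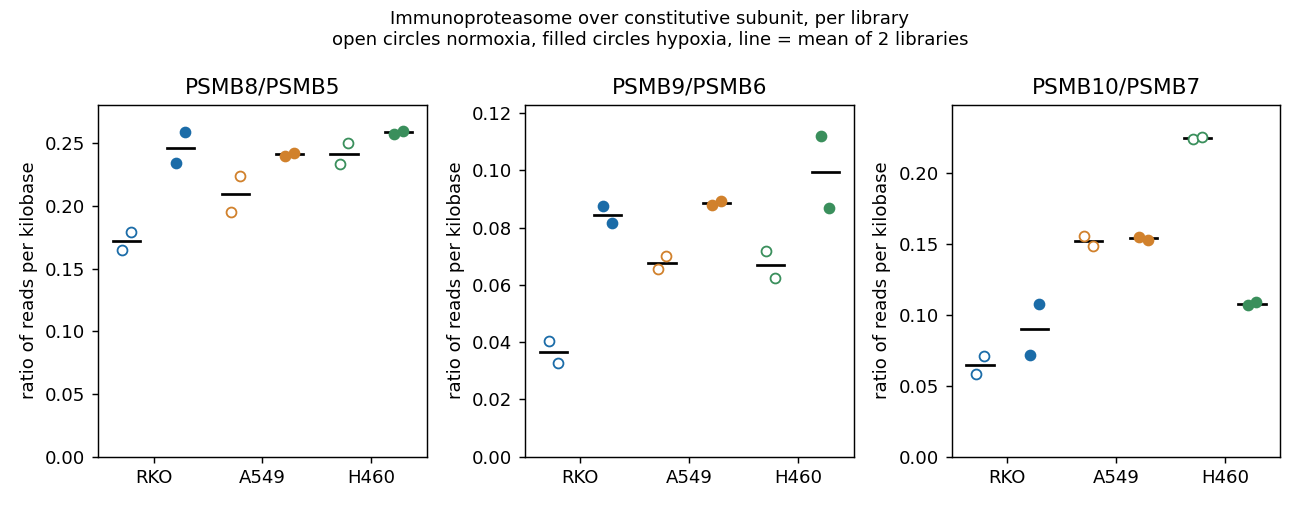
Ratio of reads per kilobase (y axes from 0) of each immunoproteasome subunit over the constitutive subunit it replaces, in each library; open circles are normoxia, filled circles hypoxia and lines the mean of 2 libraries. PSMB8/PSMB5 and PSMB9/PSMB6 lie higher in hypoxia in each line, and PSMB10/PSMB7 falls from 0.224 and 0.226 to 0.107 and 0.109 in H460.

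Of the 17 regulatory particle subunits 13 fell in RKO (all genes 15.1%), 0 in A549 (all genes 0.456%) and 9 in H460 (all genes 27.3%). Their medians were -0.75, -0.31 and -0.61. The 6 ATPases of the base, which unfold the substrate, fell together in RKO, from PSMC5 at -0.63 to PSMC3 at -0.93. In H460 PSMC2, PSMC3 and PSMC5 fell, the latter by 1.11 ± 0.08 (adjusted p = 2.67e-07). PSMC6 differed from them in H460, with 80.7 and 84.0 CPM in normoxia and 100.1 and 97.7 in hypoxia. Its fold change there was 0.25 ± 0.08, short of the 1.5-fold minimum, and -0.11 with library size scaling. In RKO it fell from 104 and 93.5 CPM to 60.0 and 60.9.

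PSMD1, the largest base subunit, fell in RKO by 0.85 ± 0.15 (adjusted p = 0.00200) and in H460 by 1.37 ± 0.09 (adjusted p = 6.40e-08). Its CPM was 277 and 239 against 147 and 151 in RKO, 186 and 132 against 161 and 96.8 in A549, and 148 and 147 against 56.6 and 59.1 in H460. PSMD2, its partner in the base, was at -0.19 ± 0.18 in RKO and fell by 0.67 ± 0.09 (adjusted p = 2.56e-05) in H460. PSMD4, a ubiquitin receptor, was not called in any line.

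In the lid 6 of 8 subunits fell in RKO (all genes 15.1%) and 4 in H460 (all genes 27.3%). PSMD6 had 133 and 125 CPM in RKO normoxia and 67.1 and 70.3 in hypoxia, and fell by 0.97 ± 0.15 (adjusted p = 0.000769). In H460 it had 92.4 and 86.9 CPM in normoxia and 115 and 108 in hypoxia, and in A549 72.3 and 58.8 against 60.0 and 43.7. The H460 hypoxia libraries were thus higher with TMM scaling (0.30 ± 0.09, under the 1.5-fold minimum), and the fold change was -0.06 with library size. PSMD14, the deubiquitinase of the lid, was at -0.42 ± 0.17 in RKO, without a call, and fell by 0.91 ± 0.08 (adjusted p = 1.58e-06) in H460. PSMD12 fell in RKO by 0.92 ± 0.15 (adjusted p = 0.00129) and was at -0.40 ± 0.10 in H460, under the 1.5-fold minimum.

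Among the 7 assembly chaperones 4 fell in RKO (all genes 15.1%) and 3 in H460 (all genes 27.3%). PSMG1, which with PSMG2 starts the alpha ring, had 94.1 and 87.5 CPM in RKO normoxia and 38.6 and 46.8 in hypoxia, 53.2 and 48.5 against 47.3 and 37.3 in A549, and 49.0 and 49.0 against 16.6 and 14.7 in H460. It fell by 1.15 ± 0.16 (adjusted p = 0.000554) in RKO and by 1.67 ± 0.10 (adjusted p = 5.63e-08) in H460. Its partner PSMG2 was at -0.53 ± 0.16 in RKO and -0.02 ± 0.11 in H460, without a call. PSMG3 and PSMG4, which act together in the next step, fell in RKO and in H460. PSMG3 fell by 1.02 ± 0.19 (adjusted p = 0.00250) in RKO and by 0.65 ± 0.09 (adjusted p = 3.61e-05) in H460, and PSMG4 by 0.65 ± 0.23 and 1.08 ± 0.12. Of the base chaperones, PSMD5 fell in RKO by 0.69 ± 0.15. PSMD10 had 52.1 and 45.1 CPM in H460 normoxia and 74.9 and 70.4 in hypoxia, at 0.57 ± 0.10 (adjusted p = 0.000249) just short of the 1.5-fold minimum. It passed as the 1 gene that rose when replicate 1 of H460 normoxia or replicate 2 of H460 hypoxia was left out.

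The activators and the inhibitor did not move together. PSME3, the nuclear activator PA28 gamma, had 289 and 299 CPM in RKO normoxia and 115 and 151 in hypoxia, 271 and 227 against 200 and 124 in A549, and 165.5 and 156 against 39.1 and 44.1 in H460. The conditions were separate in each line. It fell by 1.21 ± 0.17 (adjusted p = 0.000603) in RKO and by 1.96 ± 0.10 (adjusted p = 1.01e-08) in H460, and was at -0.64 ± 0.24 (adjusted p = 0.243) in A549. PSME1 and PSME2 encode the interferon-inducible PA28 alpha and beta, which form a shared ring. PSME2 fell in H460 by 0.85 ± 0.09 (adjusted p = 2.90e-06), where PSME1 was at 0.36 ± 0.08, with 92.5 and 87.3 CPM in normoxia and 117 and 117 in hypoxia. PSME4, the activator PA200, was at -0.25 ± 0.16 in RKO and 0.24 ± 0.09 in H460 (-0.11 with library size). PSMF1, an inhibitor of the core particle, had 105 and 98.2 CPM in RKO normoxia and 77.3 and 70.7 in hypoxia, and 93.2 and 85.3 against 131 and 117 in H460. Its fold changes, -0.52 ± 0.15 and 0.45 ± 0.09, were both under the 1.5-fold minimum.

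Genes that work with the particle were read from lists of associated factors, the NFE2L1 pathway, ubiquitin and antigen presentation. Of 17 genes for associated factors 7 fell in RKO (all genes 15.1%), 0 in A549 (all genes 0.456%) and 6 in H460 (all genes 27.3%). Of the 17, 0 rose in these lines (all genes 18.8%, 2.22% and 24.6%). In RKO ADRM1, a ubiquitin receptor, fell by 0.91 ± 0.15 (adjusted p = 0.00113), UCHL5, the deubiquitinase it recruits, by 0.73 ± 0.15 (adjusted p = 0.00338) and POMP, the maturation factor of the core, by 0.76 ± 0.16 (adjusted p = 0.00378). In H460 VCP, the segregase that extracts ubiquitinated proteins, fell by 1.01 ± 0.09 (adjusted p = 8.13e-07), UCHL5 by 0.93 ± 0.08 (adjusted p = 1.36e-06) and the deubiquitinase USP14 by 0.72 ± 0.09 (adjusted p = 1.38e-05). POMP was at -0.10 ± 0.08 in H460. Of 4 genes for the NFE2L1 pathway and NFE2L2, the protease DDI2 fell in RKO by 0.74 ± 0.19 (adjusted p = 0.0114). In H460 NFE2L1 rose by 0.67 ± 0.09 (adjusted p = 4.21e-05) and NGLY1, which deglycosylates its product, by 1.92 ± 0.09 (adjusted p = 6.02e-09). Of 4 ubiquitin genes UBB fell in RKO by 0.78 ± 0.17 (adjusted p = 0.00473). None of these 25 genes was called in A549 by edgeR, with 2 at an unadjusted p under 0.05.

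The 8 genes of interferon signalling and antigen presentation moved in both directions. Among all genes 18.8% rose and 15.1% fell in RKO, and 24.6% rose and 27.3% fell in H460. Calls in both directions are thus not particular to these 8. TAP1, a subunit of the peptide transporter whose gene shares a promoter region with PSMB9, had 55.5 and 62.0 CPM in RKO normoxia and 96.4 and 116 in hypoxia, 51.25 and 40.5 against 52.1 and 50.1 in A549, and 67.3 and 59.9 against 109.5 and 92.45 in H460. It rose by 0.79 ± 0.16 (adjusted p = 0.00347) in RKO and by 0.65 ± 0.10 (adjusted p = 0.000124) in H460. The peptidase ERAP1 rose in RKO by 0.59 ± 0.16 (adjusted p = 0.0131). TAP2, the other transporter subunit, fell by 0.61 ± 0.20 (adjusted p = 0.0340) in RKO and by 1.58 ± 0.10 (adjusted p = 8.50e-08) in H460, where TAPBP rose by 0.84 ± 0.10 (adjusted p = 1.15e-05). NLRC5 fell in RKO by 0.63 ± 0.22 (adjusted p = 0.0449). None of the 8 was called in A549, with 2 at an unadjusted p under 0.05. PSMB8, PSMB9, TAP1, TAP2 and TAPBP lie in the major histocompatibility region, whose alternate copies in the reference may share reads, and the part of this in their values was not tested.

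Whether the hypoxia effect differed between lines was tested as the interaction of line and oxygen in a joint edgeR fit of the 12 libraries. An adjusted p under 0.1 was the call. For each gene the joint fit shares 1 estimate of the spread, although replicates varied more in A549 (18.9%) than in H460 (7.91%). Its SEs may thus be too small for A549 and too large for H460, also in the normoxia comparisons below. Between RKO and A549 7 genes differed (15.2%, all genes 14.6%), each more negative in RKO (all genes 5.53% in that direction and 9.03% in the other). PSMA7 differed by -0.77 ± 0.19 (adjusted p = 0.0261), PSMG1 by -0.82 ± 0.22 (adjusted p = 0.0346) and PSMC6 by -0.57 ± 0.18 (adjusted p = 0.0587). This count rested on single libraries. It was 1 without replicate 1 of RKO normoxia, RKO hypoxia or A549 hypoxia (PSMA7 in each case), 2 without replicate 2 of A549 normoxia (PSMA7 and PSMG1), 17 without replicate 1 of A549 normoxia and 19 without replicate 2 of A549 hypoxia.

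Between RKO and H460 16 genes differed (34.8%, all genes 37.6%), 10 with a lower value in RKO (all genes 16.4%) and 6 with a higher one (all genes 21.1%). PSMC6, PSMD6 and PSMF1 were lower in RKO by 0.97 ± 0.18 (adjusted p = 0.00120), 1.22 ± 0.22 (adjusted p = 0.00127) and 0.93 ± 0.18 (adjusted p = 0.00177), given as differences of log2 fold changes. PSMB10 and PSME3 were among the 6, since they fell further in H460 by 0.91 ± 0.26 (adjusted p = 0.0169) and 0.80 ± 0.28 (adjusted p = 0.0451). The count was 9 without replicate 2 of RKO hypoxia, 8 and 7 without replicate 1 and 2 of H460 normoxia, and 7 and 9 without replicate 1 and 2 of H460 hypoxia. Between A549 and H460 19 genes differed (41.3%, all genes 36%), 17 with a lower value in H460 (all genes 18.8%) and 2, PSMD6 and PSMF1, with a higher one (all genes 17.2%). PSMG1, PSMB3 and PSME3 had the lowest p, with differences of 1.39 ± 0.22 (adjusted p = 0.000681), 0.96 ± 0.19 (adjusted p = 0.00266) and 1.33 ± 0.28 (adjusted p = 0.00390). Without replicate 1 of H460 hypoxia the count was 10. The comparisons share the libraries of a line, so they are not independent of each other.

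Normoxic levels differed between lines for a smaller share of proteasome genes than of all genes, with a call at an adjusted p under 0.1 and a 1.5-fold difference in the joint fit. Between RKO and A549 15 of 46 differed (32.6%, all genes 60.2%), 12 higher in RKO (all genes 26%) and 3 lower (all genes 34.1%). Between RKO and H460 18 differed (39.1%, all genes 61.9%), 15 higher in RKO (all genes 27.2%) and 3 lower (all genes 34.7%). Between A549 and H460 9 differed (19.6%, all genes 52.1%), 7 higher in A549 (all genes 26.9%) and 2 lower (all genes 25.2%). Without replicate 2 of A549 normoxia the last count was 14.

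PSMD2 stood apart in RKO. It had 1410 and 1249 CPM in RKO normoxia and 1329 and 1099 in hypoxia, 381 and 323 against 403 and 332 in A549, and 214 and 198 against 133 and 128 in H460. RKO normoxia exceeded A549 by 1.92 ± 0.16 (adjusted p = 8.88e-08) and H460 by 2.69 ± 0.17 (adjusted p = 2.69e-09) on the log2 scale. PSMD5, a chaperone of the base, had 180.4 and 162 CPM in RKO normoxia and 106 and 116 in hypoxia, 78.2 and 77.6 against 76.7 and 63.6 in A549, and 69.4 and 68.65 against 73.85 and 71.0 in H460. It was higher in RKO than in A549 and H460 by 1.14 ± 0.13 (adjusted p = 2.94e-06) and 1.31 ± 0.13 (adjusted p = 6.90e-07). PSME4 had 261.7 and 247 CPM in RKO normoxia and 242 and 204 in hypoxia, 122 and 106 against 111 and 97.1 in A549, and 129 and 128 against 162 and 145 in H460. In normoxia RKO exceeded A549 by 1.15 ± 0.14 (adjusted p = 4.65e-06). PSMD8, a lid subunit, had 266 and 233 CPM in RKO normoxia and 190.1 and 173 in hypoxia, 213 and 179 against 179 and 155 in A549, and 88.4 and 78.65 against 77.5 and 70.6 in H460. It was lowest in H460, by 1.58 ± 0.15 (adjusted p = 2.57e-07) against RKO and 1.23 ± 0.15 (adjusted p = 5.17e-06) against A549. PSMC4 had 122 and 129 CPM in RKO normoxia and 67.1 and 72.7 in hypoxia, 208 and 168.5 against 156 and 109 in A549, and 79.3 and 77.6 against 54.1 and 53.4 in H460. PSMG3 had 33.9 and 36.6 against 15.5 and 20.8 in RKO, 44.9 and 47.0 against 35.0 and 30.9 in A549, and 97.8 and 100.6 against 61.4 and 66.4 in H460. In normoxia PSMC4 was higher in A549 than in H460 by 1.26 ± 0.17 (adjusted p = 1.40e-05), and PSMG3 lower by 1.11 ± 0.15 (adjusted p = 2.29e-05). Of the catalytic subunits, PSMB7 was higher in RKO by 1.10 ± 0.15 (adjusted p = 1.33e-05) and 1.29 ± 0.15 (adjusted p = 2.65e-06) than in A549 and H460. PSMB9 was lower in RKO by 1.22 ± 0.21 (adjusted p = 0.000113) and 0.80 ± 0.21 (adjusted p = 0.00326).

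**Figure D5:**
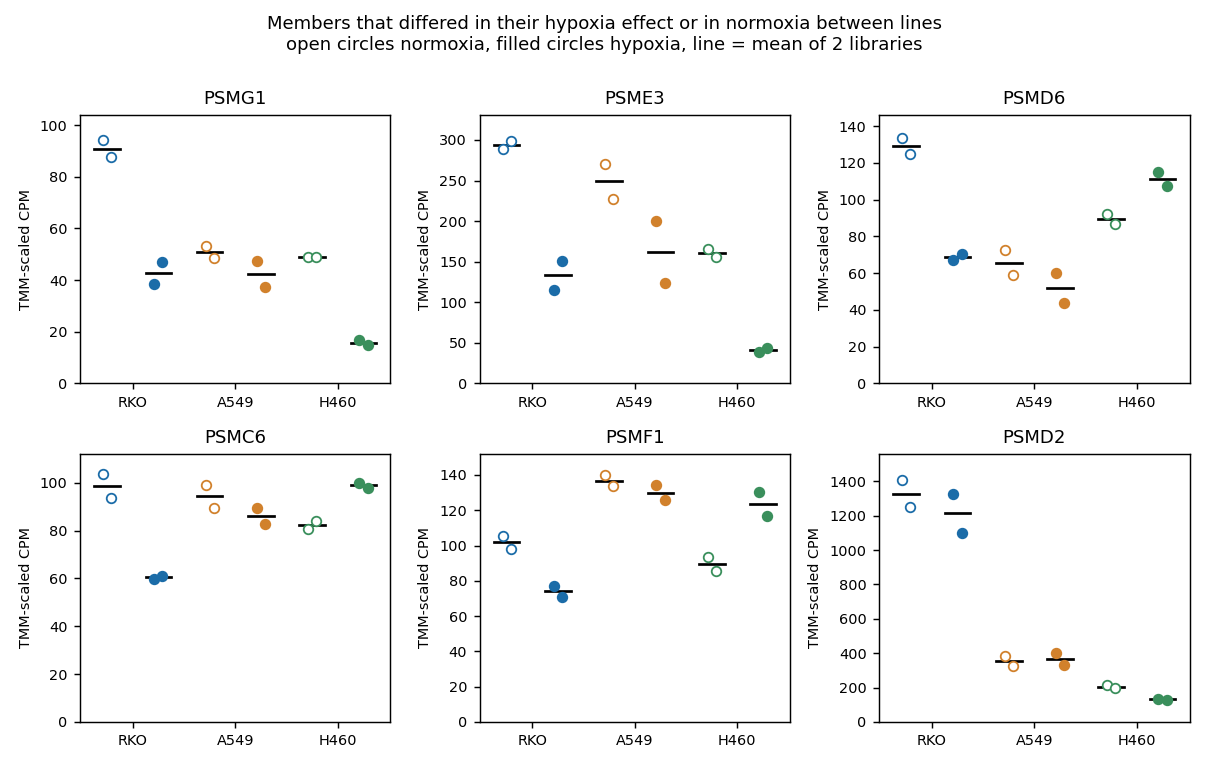
TMM-scaled CPM (y axes from 0) of 6 proteasome genes in each library; open circles are normoxia, filled circles hypoxia and lines the mean of 2 libraries. PSMG1 and PSME3 lie lower in hypoxia in each line, PSMD6, PSMC6 and PSMF1 lie lower in RKO hypoxia and higher in H460 hypoxia (for PSMD6 and PSMC6 the H460 difference turns negative with library size scaling), and PSMD2 is at 1410 and 1249 CPM in RKO normoxia against 214 and 198 in H460.

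Although the subunits of the core and of the base enter the particle in equal numbers, their mRNA levels per length did not match. As CPM per kilobase in normoxia, alpha subunits ranged from 43.5 (PSMA5) to 246 (PSMA7) in RKO, from 27.1 to 248 in A549 and from 28.8 to 253 in H460, with PSMA5 and PSMA7 at the ends in each line. The base ATPases were closer to each other, from 55.7 to 136 in RKO, 38.9 to 145 in A549 and 34.8 to 100.2 in H460. Per length, PSMD2 led all members in RKO at 420, PSMA7 in A549 at 248 and PSMB4 in H460 at 286.9. PSMB9 was at 6.50, 15.1 and 11.3 in RKO, A549 and H460 and was the lowest tested member in RKO and H460, while PSMG4 was lowest in A549 at 11.4. The 3 immunoproteasome subunits had a median of 22.1, 22.7 and 28.4, against 177, 161 and 140 for the 3 subunits they replace. These levels depend on the transcript length used for each gene, which was 3864 bases for PSMA5 and 1032 for PSMA7. Before division by length, their mean CPM in RKO normoxia was 168.2 and 254. For members other than PSMB8 and PSMB9, the lengths used were 0.279 (PSMA4) to 1.721 (PSMA1) times the canonical transcript. The levels of PSMB8 and PSMB9 may also be too low, because reads shared with alternate copies of their region may have been filtered out. This was not tested.

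The calls were also set beside the promoter letters. In RKO 9 of 15 tested genes with the antioxidant response element core fell, as did 16 of 25 without it, and in H460 7 of 15 and 12 of 25. Of the genes with CCAAT 15 of 19 fell in RKO and 13 of 19 in H460, and of those without it 10 of 21 and 6 of 21. With ACGTG 4 of 9 fell in RKO and 3 of 9 in H460, and without it 21 of 31 and 16 of 31. With the gamma-activated site the counts were 5 of 7 and 3 of 7, against 20 of 33 and 16 of 33 without it. With the interferon-stimulated response element core they were 3 of 8 and 5 of 8, against 22 of 32 and 14 of 32. These splits are counts of genes, and no test was run on them. Among the printed promoters, PSMG1 fell in RKO and H460, PSMD12 in RKO, PSMB10 in H460, and PSMB8 in none of the 3 lines.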

How the data were processed

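Poly(A)+ RNA of 12 libraries was sequenced with strand information. According to the submitters' notes and the study's methods, the authors aligned reads to hg19 (GRCh37) with TopHat2 2.0.13 and Bowtie2 2.2.3.0 and UCSC annotation, removed reads with a mapping quality under 10 (SAMtools 1.3.1), marked duplicates with Picard 1.129 and counted reads with HTSeq 0.6.1 in reverse-stranded mode. The deposited counts are whole reads per gene, and the authors also deposited RPKM, which is reads scaled to gene length and library size.

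Counts were fitted with edgeR 4.0.16 (R 4.3.3, TMM, quasi-likelihood), per line on 4 libraries for hypoxia against normoxia and jointly on 12 for differences between lines. Genes over 0.5 CPM in 2 libraries of the fit were tested, with Benjamini-Hochberg adjustment over all genes tested. A hypoxia or normoxia difference was called at an adjusted p under 0.1 and 1.5-fold, an interaction at an adjusted p under 0.1. P-values measure the spread between duplicates. DESeq2 1.42.0, the tool the study used for its calls, limma 3.58.1 on log2(RPKM + 0.1 or 1), other scalings and filters, a replicate block and leave-one-out were alternatives. Fits were tested on data simulated for each line. Of genes changed by 1 on the log2 scale, 92% were recovered in RKO, 57% in A549 and 100% in H460. At 0.75 these shares were 66%, 22% and 91%. With 100 genes changed at each size, they do not give the power of the real fits in RKO and H460, where far more genes were called.

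The members and gene lists were chosen with earlier results of these data known. Given with every library were the 6 catalytic subunits, members called in all 3 lines or in opposite directions (0 were), and the 3 called members with the lowest p per line and direction, interaction and normoxia difference. Classes were given by counts with up to 2 examples, and gene lists with up to 3 called genes per line. Other genes named were chosen after their values were seen. Deposited lengths of PSMB8 and PSMB9 sum alternate haplotype contigs (224 genes lie on such contigs), so GENCODE lengths were used for them. This choice and the ratio test were made after the values were seen. Promoters came from RefSeq (GRCh38.p14). Some genes of the marker and gene lists are not reported here.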

Additional observations from a re-analysis of the deposited data

Results flagged for a closer look

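The hypoxia effect differed between lines, by the interaction term of the joint edgeR fit. This held for 7 proteasome genes in RKO against A549, for 16 in RKO against H460 and for 19 in A549 against H460. These are 15.2%, 34.8% and 41.3% of the 46 tested genes, near the 14.6%, 37.6% and 36% of all genes. Leaving out 1 library gave 1 to 19, 7 to 14 and 10 to 21. Between RKO and A549 the log2 fold changes of PSMA7, PSMG1 and PSMC6 differed by -0.77, -0.82 and -0.57. Between RKO and H460 those of PSMC6, PSMD6 and PSMF1 differed by -0.97, -1.22 and -0.93. Between A549 and H460 those of PSMG1, PSMB3 and PSME3 differed by 1.39, 0.96 and 1.33.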

How the results depend on the processing

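With a 2-fold minimum 4 members fell in RKO (PSMA3, PSME3, PSMG1 and PSMG3; 8.7%, all genes 4.85%) and 10 in H460 (21.7%, all genes 16.7%), and normoxia differences numbered 5 (RKO against A549), 8 (RKO against H460) and 3 (A549 against H460). In A549 1 member, PSME3, fell in the joint fit and with the replicate block. In H460 1 member, PSMD10, rose with DESeq2 and with RLE factors, and 6 without a fold minimum. The interaction of RKO and A549 gave 16 members with DESeq2, 11 with RLE factors, 2 with library size and 28 with the replicate block. For interactions and normoxia differences, the share of all genes called was not counted outside the main setting. Such member counts therefore cannot be set beside that share. The cause of these changes was not tested. Leaving out 1 library gave 25 to 33 lower members in RKO, 0 to 5 in A549 and 20 to 23 in H460, 0 to 1 higher in H460, interactions of 1 to 19, 7 to 14 and 10 to 21, and normoxia differences of 12 to 16, 16 to 19 and 7 to 14.

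PSMB8 in A549 (0.00) turned to -6e-04 with DESeq2, -7e-04 with RLE factors, -0.0867 with library size, -0.0045 without a filter, -0.0862 and -0.0581 with limma at pseudocounts of 0.1 and 1. In H460 it was 0.0145 with DESeq2 and 0.0144 with RLE factors. Leaving out 1 library gave -0.1296 to 0.1187, with -0.0979 between them, for PSMB8 in A549, -0.0881 to 0.0562 for PSMB8 in H460, -0.4067 to 1e-04 for PSMB5 in A549 and -0.2992 to 0.0678 for PSMB9 in H460.

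Same-numbered libraries of a line deviated from their group means with correlations of 0.356, 0.377 and 0.151, over 2 pairs a line, and the labels do not say that a number marks a shared batch. With the replicate block 16 members in A549 had an unadjusted p under 0.05, against 3 without it, and 5.07% of all genes were called lower. It gave 30 lower members in RKO and 22 in H460, interactions of 24 and 23 with H460, and 13, 18 and 9 normoxia differences. Each group has 2 libraries, which limits every p-value here.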

Other observations

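From the deposited RPKM, without the change of length, the ratio of PSMB8 over PSMB5 was 0.0131 to 0.0206 over the 12 libraries and that of PSMB9 over PSMB6 was 0.00397 to 0.0136. The corrected length moves these levels and not the difference between conditions.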
